A study of Mus musculus with 13 samples.

Results

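The replication-dependent histone genes are the clustered genes whose names begin with Hist1h, Hist2h, Hist3h or Hist4h. They were found by matching the Entrez identifier of every row of the expression table to mouse gene symbols, current names and synonyms alike, and leaving out pseudogenes. Of 70 annotated loci with such a name, 3 were pseudogenes and 1 coding gene had no row, which left 66 histone genes among the 23366 genes of the table. By protein class these were 6 genes of the linker histone H1, 18 of H2A, 17 of H2B, 12 of H3 and 13 of H4. The large Hist1 cluster on chromosome 13 held 53 of them, the Hist2 cluster on chromosome 3 held 10, the Hist3 cluster on chromosome 11 held 2, and the single Hist4 gene lay on chromosome 6.

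RNA sequencing of the pancreas was performed in 13 female i4F-B reprogrammable mice, which all carried a doxycycline-inducible OSKM transgene (Oct4, Sox2, Klf4 and Myc) inserted in the Pparg gene. The young group (13 weeks, n = 4) and the old group (55 weeks, n = 5) never received doxycycline, and the old-OSKM group (n = 4, 58 weeks in the sample labels) received it for 7 days and then recovered for 2 weeks. The inducible system was ubiquitous, but per the study the cassette was expressed unevenly, broadly in acinar cells but not in most endocrine cells. That staining was of SOX2 in a young mouse shortly after injected doxycycline, and not of the mice here. No group of old mice received doxycycline without the cassette. The libraries came from rRNA-depleted total RNA, one per mouse, so that transcripts without a poly(A) tail could also be read. All values below are log2 RPKM, in which reads are scaled by transcript length and by the mapped reads of the library, and a difference of 1 is a 2-fold change. Mice are numbered within their group only to name them.

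Cells need new histones in large amounts when they copy their DNA, and most clustered histone genes are transcribed during S phase. Their messenger RNAs are usually not polyadenylated: they end just after a conserved stem-loop, which the stem-loop binding protein Slbp and the U7 small nuclear ribonucleoprotein recognise when the transcript is cut, and they are degraded when DNA synthesis stops. Some clustered genes also give polyadenylated transcripts in cells that have stopped dividing. In the adult pancreas most cells are acinar cells, which rarely divide.

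The stem-loop was found in the annotated 3′ untranslated region of 46 of the 66 histone genes, beginning 21 to 58 bases after the stop codon (median 31). It was defined as 16 bases that start with GG, with a stem of 6 paired bases that ends in T and a loop of 4, of the form TNTN. Of the 20 genes without it, 15 had fewer than 30 annotated bases after the stop codon, so for those the annotation ended before the place to look. There were 8 distinct stem-loops, and 26 genes shared the most common one. The following are the stem-loops of histone genes described below, 1 or more of each class, from GENCODE vM21 transcripts (5′ to 3′, as DNA), with the stem and loop in capitals.
Hist1h1c (H1): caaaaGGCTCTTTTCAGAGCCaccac
Hist2h2aa1 (H2A): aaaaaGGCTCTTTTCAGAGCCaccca
Hist3h2a (H2A): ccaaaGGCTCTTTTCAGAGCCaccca
Hist1h2ab (H2A): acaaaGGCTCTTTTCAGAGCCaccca
Hist1h2bb (H2B): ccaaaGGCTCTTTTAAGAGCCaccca
Hist1h3c (H3): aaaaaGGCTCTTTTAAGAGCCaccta
Hist1h4h (H4): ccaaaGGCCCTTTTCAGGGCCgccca
Hist1h4j (H4): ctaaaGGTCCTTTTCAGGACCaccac
The H4 genes Hist1h4h and Hist1h4j differ from the others in the stem, and Hist1h2bb and Hist1h3c differ in the loop. In 18 of the 46 genes, annotated transcripts ran on for more than 200 bases after the stem-loop, which is past the place where a replication-dependent transcript is cut.

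The promoters of the histone genes held the short elements known from this family more often than promoters in general. RefSeq promoter windows (250 bases before to 50 bases after the start of the gene, GRCm38.p6) were at hand for 61 of the 66. CCAAT, the box bound by the factor NF-Y, was present on either strand in 85.3% of them and in 41.1% of the windows of all genes. It stood in every H1, H2A, H2B and H3 window but in 25% of the H4 windows. TATAAA, the TATA box, was present in 57.4% against 15.7% of all genes. The octamer ATGCAAAT, bound by POU factors such as Oct1, was present in 23.0% against 1.97% of all genes. The octamer was found in 7 of 18 H2A windows and 7 of 15 H2B windows, and in none of the H1, H3 and H4 windows. A window counted once for each element it held, also where elements overlapped. Head-to-head H2A and H2B genes, described below, have windows that cover largely the same bases. An element there could count for both genes, so these shares are not counts of separate sites. These matches are letters in a window, and no binding was measured. The windows of 3 H2A genes that lead the comparisons below are given here on their own strand, with each of these 3 elements in capitals, on either strand.
Hist2h2aa1, chr3:96245247-96245546, plus strand: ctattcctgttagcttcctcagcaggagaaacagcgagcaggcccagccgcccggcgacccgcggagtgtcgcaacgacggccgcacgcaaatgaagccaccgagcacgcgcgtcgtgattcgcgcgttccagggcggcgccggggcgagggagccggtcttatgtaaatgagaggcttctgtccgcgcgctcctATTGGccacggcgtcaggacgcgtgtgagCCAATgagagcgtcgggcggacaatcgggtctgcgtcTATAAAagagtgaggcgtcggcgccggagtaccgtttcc
Hist3h2a, chr11:58954435-58954734, plus strand: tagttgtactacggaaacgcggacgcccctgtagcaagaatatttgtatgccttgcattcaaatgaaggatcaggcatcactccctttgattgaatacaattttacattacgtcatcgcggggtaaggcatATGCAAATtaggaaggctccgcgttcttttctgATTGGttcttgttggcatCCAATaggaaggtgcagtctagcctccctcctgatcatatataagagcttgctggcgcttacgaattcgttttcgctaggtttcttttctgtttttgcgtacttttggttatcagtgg
Hist1h2ab, chr13:23750838-23751137, plus strand: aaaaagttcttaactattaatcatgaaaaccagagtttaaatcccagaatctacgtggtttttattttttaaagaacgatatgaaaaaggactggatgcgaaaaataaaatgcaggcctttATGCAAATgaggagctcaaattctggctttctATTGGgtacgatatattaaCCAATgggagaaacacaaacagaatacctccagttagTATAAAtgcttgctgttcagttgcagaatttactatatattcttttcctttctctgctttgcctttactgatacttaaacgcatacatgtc

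Histone genes are so alike that their reads are hard to tell apart, and this bears on every value for a single gene. The 66 genes encoded 29 distinct proteins: 6 H1 proteins, 9 H2A, 11 H2B, 2 H3 and 1 H4. The coding sequence of each gene was cut into all its stretches of 50 bases, the length of a read end in this study, and these were looked up in the transcripts of all other genes. Other annotated genes that overlap a histone gene counted too, and 5 of the 66 overlapped one, other than a miRNA, on the same strand. Sharing with a transcript at the same place is not likeness to a histone gene elsewhere. In H1 genes a median of 10.9% of the stretches also occurred in another gene. The median was 87.9% in H2A, 79.2% in H2B, 84.7% in H3 and 70.3% in H4 genes. The median share found in 5 or more genes, the gene itself included, was 0% in H1, 70.2% in H2A, 55.4% in H2B, 53.0% in H3 and 44.5% in H4 genes, and the authors had left out reads that aligned to 5 or more places. Of the 858 values of the 66 genes in 13 mice, 105 (12.2%) were equal, to 6 decimals, to the value of another histone gene in the same mouse. Hist1h2be also carried exactly the value of Gm11398, an overlapping pseudogene, in every mouse. Some of the equal values were low. In young mouse 3 Hist1h2af, Hist1h2ai, Hist1h2ad and Hist1h2an all stood at -2.15, beside -2.14 for the testis gene Hist1h2aa. Given the shared stretches, values of most single H2A, H2B, H3 and H4 genes depend on how shared reads were divided. In 11 genes under 30% of the stretches were shared: all 6 H1 genes, Hist1h2aa, Hist2h2ab, Hist2h2be, Hist2h4 and Hist4h4.

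The levels of the histone genes in the pancreas covered a wide range, from -2.84 to 4.01 as means of the 13 mice. The median gene stood at -0.06, against -1.02 over all genes of the table. There were 17 histone genes with a mean above 1, 29 between -1 and 1, and 20 below -1. Summed on the linear scale, the 66 genes reached 123 ± 8.95 RPKM in young (SD, n = 4), 130 ± 12.0 in old (SD, n = 5) and 140 ± 30.6 in old-OSKM mice (SD, n = 4). The ranges of the groups overlapped: 112 to 134, 117 to 142 and 109 to 181.

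**Figure D1:**
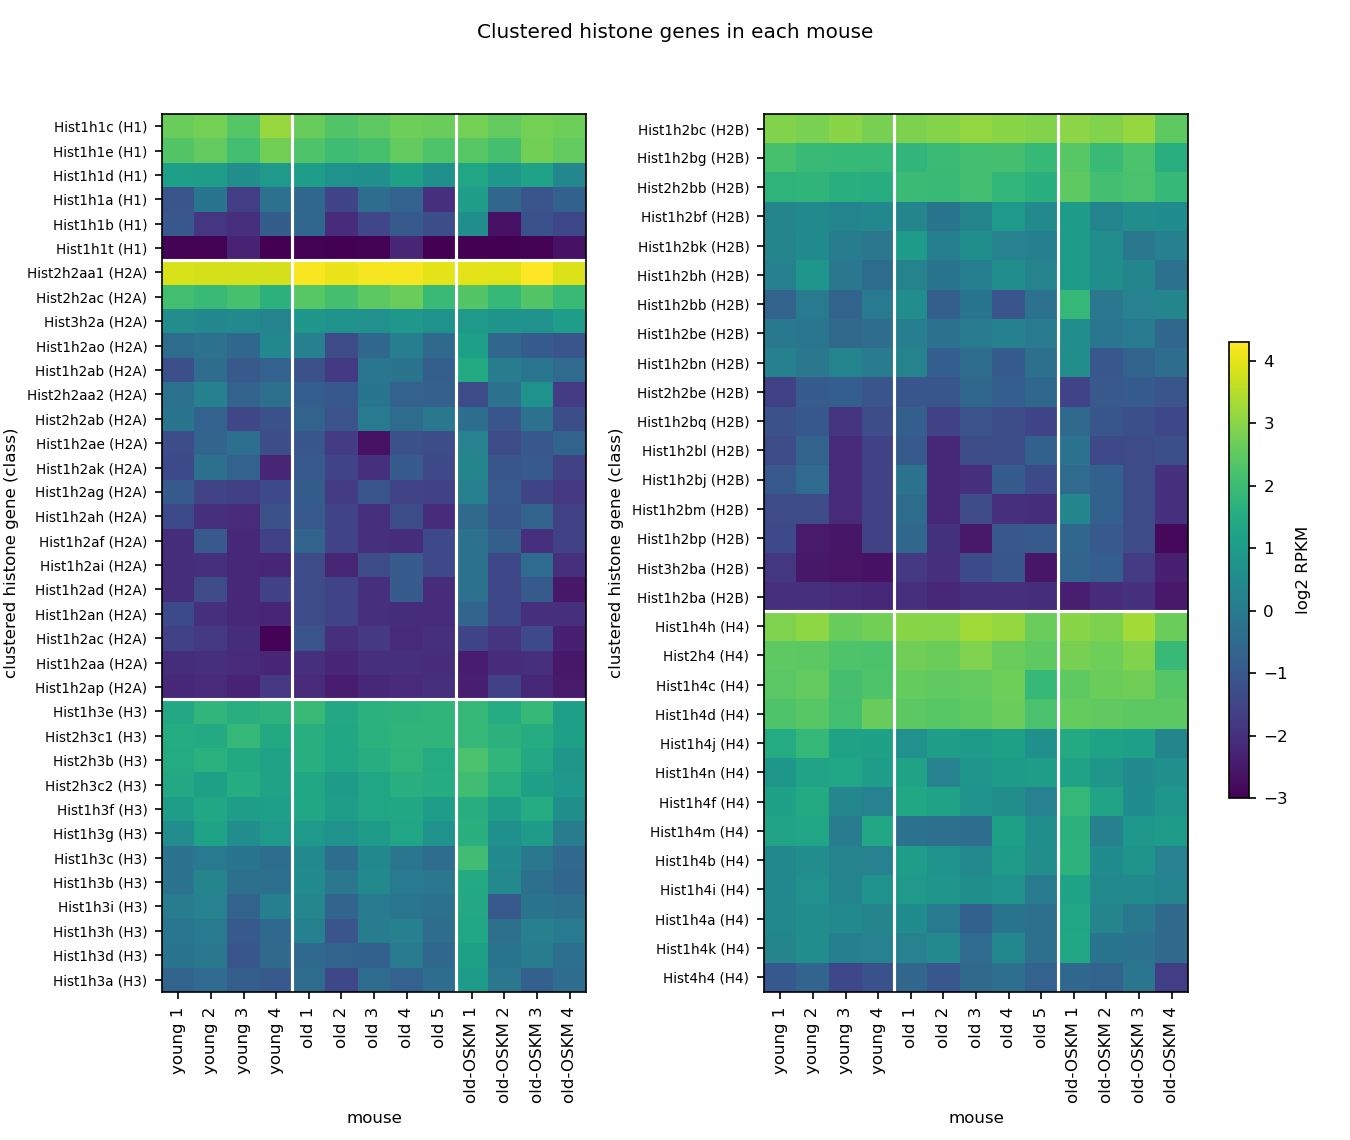
Levels (log2 RPKM, colour) of the 66 clustered histone genes (rows, by class and then by mean) in each of the 13 mice (columns, groups parted by white lines); levels under the end of the colour bar take its darkest colour. Hist2h2aa1 is the highest in every mouse, the Hist1 H2A genes are low, and old-OSKM mouse 1 is the brightest column in most rows of moderate or low level.

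Among H2A genes, Hist2h2aa1 was the highest of all 66 histone genes, with a mean of 4.01. It alone made up 12.5% of the summed RPKM, as a mean over the mice. Hist2h2aa2, its neighbour with the same coding sequence, had a mean of -0.54, so the division of reads between them is uncertain. Hist2h2aa1 also overlaps the annotated transcripts Gm20634 on its own strand and Gm20633 on the other. Hist2h2ac, in the same cluster, had a mean of 2.15 and Hist3h2a a mean of 0.71. In contrast, the 13 H2A genes of the Hist1 cluster all had means of -0.33 or lower. The lowest of them, Hist1h2ap (-2.14) and the testis histone gene Hist1h2aa (-2.14), lay at the same level. Taking the value of Hist1h2aa plus 0.1 as a measured low level in each mouse, 4 to 15 histone genes were at or under it, depending on the mouse. These were 19 genes in all, 3 of them in every mouse.

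Among H2B genes, Hist1h2bc was the highest (mean 2.92), followed by Hist1h2bg (2.00) and Hist2h2bb (1.90). The testis gene Hist1h2ba was the lowest of the class (-2.12). Among H3 genes the highest was Hist1h3e (1.64), and the 3 Hist2 genes Hist2h3c1, Hist2h3b and Hist2h3c2 followed at 1.59, 1.52 and 1.37. All 8 remaining H3 genes belonged to the Hist1 cluster and ranged from -0.49 to 1.20. The H4 genes, which all encode the same protein, were led by Hist1h4h (2.93), Hist2h4 (2.55), Hist1h4c (2.45) and Hist1h4d (2.43), and the lowest was Hist4h4 (-0.79). Thus copies of 1 protein differed by several log2 units in RNA level.

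The H1 genes divided in the same way into high and low members. Hist1h1c (2.65) and Hist1h1e (2.38) were high and Hist1h1d was intermediate (0.91). Hist1h1a (-0.74) and Hist1h1b (-1.27) were low, and the testis gene Hist1h1t was the lowest of all 66 (-2.84). As background, Hist1h1a and Hist1h1b belong to the H1 genes most tied to dividing cells, while Hist1h1c is made widely in differentiated tissues. Levels were higher in genes with annotated transcripts far beyond the stem-loop. The 18 genes with more than 200 bases had a median level of 1.16, and the 28 with a shorter or no extension had 0.03. This is a description: the 2 sets share loci and class composition.

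Many H2A and H2B genes start head to head from a shared promoter region, and the members of a pair were often unequal. There were 12 pairs of histone genes with starts 164 to 608 bases apart on opposite strands, of which 11 joined an H2A and an H2B gene. In 9 of the 11, the H2B gene had the higher mean, by a median of 0.27 over all 11. Some of these 9 were nearly equal. Hist1h2bj exceeded Hist1h2ag by 8.7e-05 as a mean and was higher in 6 of 13 mice. Hist1h2bp exceeded Hist1h2an by 0.17 and was higher in 7. Hist1h2bc exceeded Hist1h2ac by 4.80 as a mean, and by 3.97 to 5.73 in single mice. Hist1h2bg exceeded Hist1h2ae by 3.08, with a range of 2.16 to 4.78. The reverse was seen in 2 pairs, in all 13 mice. In the Hist2 cluster the H2B gene Hist2h2be had a difference of -3.13 from Hist2h2ac as a mean, and in the Hist1 cluster Hist1h2bq had a difference of -0.89 from Hist1h2ao. The pair of testis genes, Hist1h2aa and Hist1h2ba, is also among the 9, but both had the same low level to within 0.0219 in every mouse. Its order therefore says little.

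**Figure D2:**
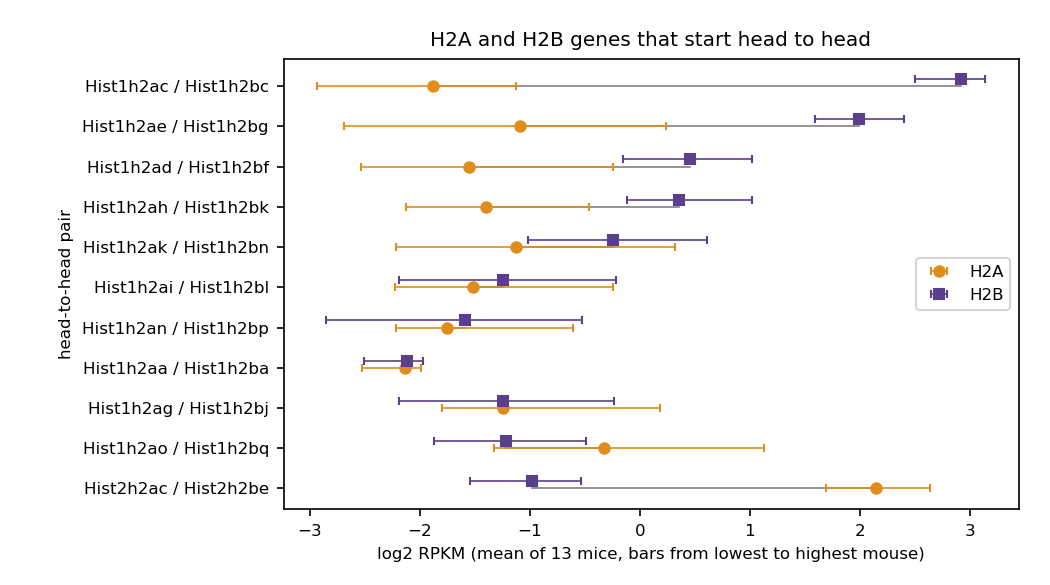
Levels (log2 RPKM, mean of 13 mice, bars from the lowest to the highest mouse) of the H2A gene (circles) and the H2B gene (squares) in the 11 head-to-head pairs. The ranges are far apart in the pairs of Hist1h2bc, Hist1h2bg and Hist2h2ac, and overlap in most of the low pairs.

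The comparison of old with young mice asked whether histone expression in the pancreas differs with age. With limma, the 3 groups in 1 fit, no histone gene was called (fold change over 1.5 and raw p under 0.01), against 0.886% of all genes, and none had a Benjamini-Hochberg adjusted p under 0.05, against 0.0813% of all genes. At an unadjusted p under 0.05, 2 histone genes were higher and 1 was lower in old mice, 4.55% of the 66 against 5.52% of all genes. The median difference over the 66 genes was 0.07, beside 0.00 over all genes, and 45 of the 66 (68.2%) were higher in old mice, beside 54.4% of all genes. By class the median differences were -0.12 for H1, 0.11 for H2A and 0.07 to 0.08 for H2B, H3 and H4.

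**Figure D3:**
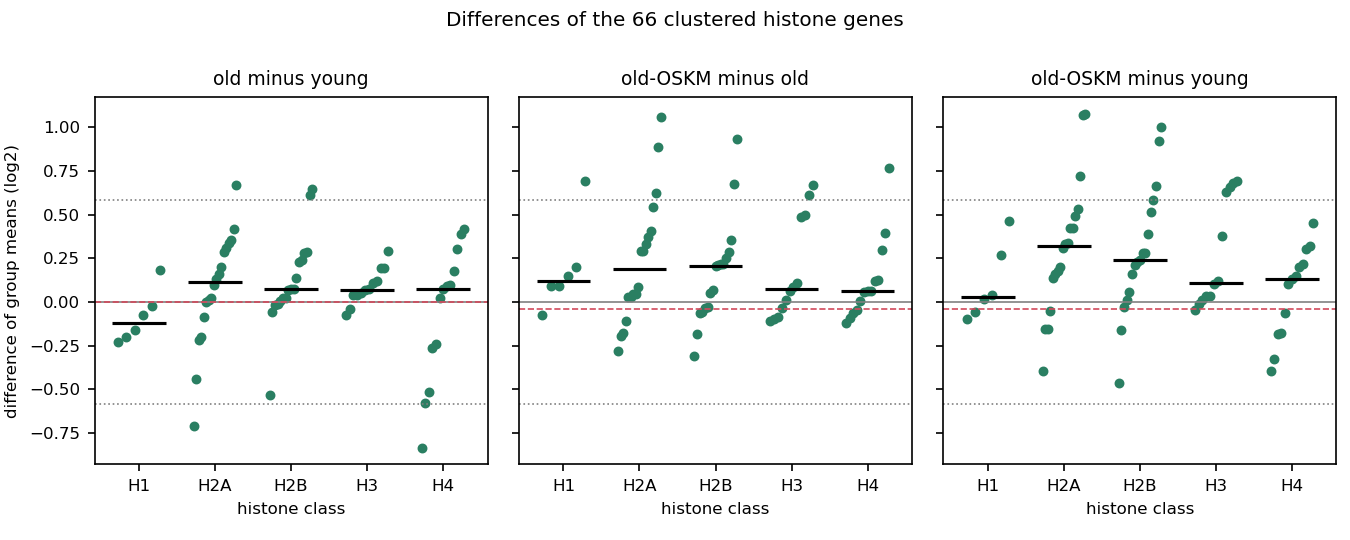
Differences of group means (log2) of each of the 66 histone genes (points, sorted within class) in the 3 comparisons, with the median of each class (black bar), the median of all genes (red dashes) and a fold change of 1.5 in either direction (dotted lines). In both comparisons with old-OSKM mice every point past the dotted lines is on the upper side, and none of them met the threshold on p as well.

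Hist2h2aa1 and Hist3h2a, both H2A genes outside the Hist1 cluster, had the smallest p-values with age. Hist2h2aa1 was 3.84, 3.83, 3.83 and 3.82 in young mice 1 to 4 and 4.23, 4.09, 4.21, 4.20 and 3.99 in old mice 1 to 5. All old mice lay above all young mice, whose 4 values were nearly equal. The old-OSKM mice were at 3.99, 3.95, 4.27 and 3.91, also above every young mouse, and overlapped the old mice. The difference was 0.31 ± 0.08 (SE), a 1.24-fold change, with an adjusted p of 0.312 (limma). Over the alternative fits, the adjusted p ranged from 0.0936 to 0.642.

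Hist3h2a was 0.61, 0.41, 0.47 and 0.30 in young mice and 0.85, 0.75, 0.70, 0.89 and 0.75 in old mice. Again the groups did not overlap. Old-OSKM mice had 0.91, 0.77, 0.72 and 1.08, in and above the range of old mice. The difference of old from young mice was 0.34 ± 0.08 (SE), 1.26-fold, with an adjusted p of 0.322 (limma). The difference of old-OSKM from young mice was 0.42 ± 0.09 (SE), 1.34-fold, with an adjusted p of 0.334 (limma). The annotated span of the gene Trim17 covers the same 508 bases on the same strand, and Trim17 itself was low in all mice (mean -2.86, from -3.63 to -1.95). All coding stretches of Hist3h2a and of Hist2h2aa1 occurred in another annotated gene.

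Hist1h4j was the gene lower with age. It was 1.499, 1.87, 1.19 and 1.18 in young mice and 0.70, 1.09, 0.99, 1.14 and 0.68 in old mice, with no overlap. The old-OSKM mice spread over both ranges, at 1.45, 1.23, 1.13 and 0.34. The difference of old from young mice was -0.52 ± 0.22 (SE), with an adjusted p of 0.843 (limma). Groups that did not overlap were thus found for 3 histone genes, 4.55% of the 66, against 2.71% of all genes. A run of later sample numbers held young mice 3 and 4 and old mouse 5. With that run as a covariate the 3 differences were 0.28, 0.31 and -0.64.

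**Figure D4:**
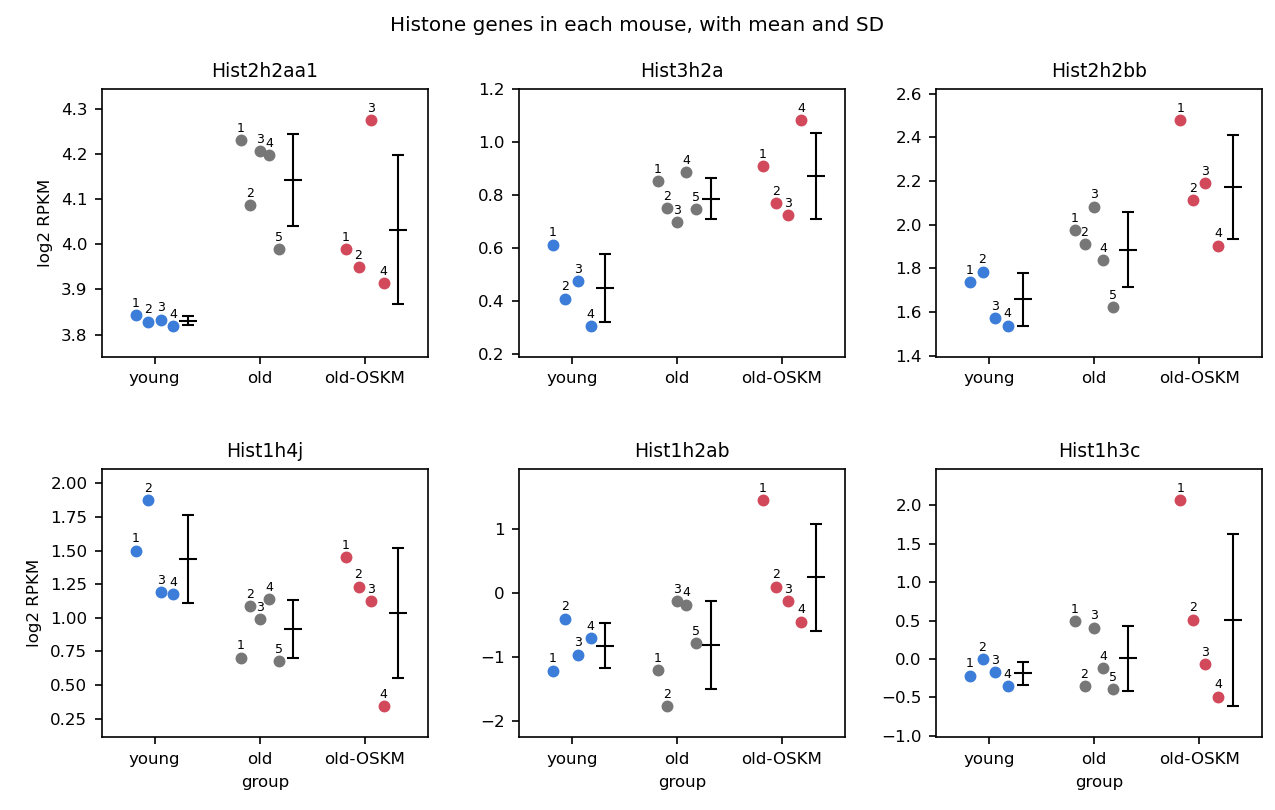
Levels (log2 RPKM) of 6 histone genes in each mouse (numbers name the mouse within its group), with the mean and SD of the group in black. Hist2h2aa1 and Hist3h2a separate young from old mice, Hist1h4j does so in the other direction, and old-OSKM mouse 1 stands above all other mice for Hist2h2bb, Hist1h2ab and Hist1h3c.

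The comparison of old-OSKM with old mice asked whether a cycle of OSKM expression changed the levels in old pancreas. Here too limma called no histone gene, against 0.753% of all genes, and no histone gene had an adjusted p under 0.05, against 0.00428% of all genes. At an unadjusted p under 0.05, 5 histone genes were higher and none was lower in old-OSKM mice, 7.58% of the 66 against 8.07% of all genes. They were Hist1h2ab, Hist2h2bb, Hist1h2ae, Hist1h2bb and Hist1h3d, with differences of 0.29 to 1.06 and each with an adjusted p of 0.547 (limma). No histone gene had groups that did not overlap, against 1.73% of all genes. The median difference over the 66 was 0.09, beside -0.04 over all genes, and 47 of 66 (71.2%) were higher, beside 36.9% of all genes.

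This upward balance rested on old-OSKM mouse 1. Without it the median difference from old mice was -0.03, 27 of 66 histone genes (40.9%) were higher, beside 37.6% of all genes, and none had an unadjusted p under 0.05. Without old-OSKM mouse 4 the median was 0.25 and 58 of 66 (87.9%) were higher, beside 37.2% of all genes.

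The comparison of old-OSKM with young mice also leaned upward. Unlike in the comparison with old mice, the shares at the unadjusted p and without overlap exceeded those of all genes. By limma no histone gene was called, against 0.625% of all genes, and none had an adjusted p under 0.05, against 0.0428%. At an unadjusted p under 0.05, 7 histone genes were higher and none was lower, 10.6% of the 66 against 5.07% of all genes. In 4 genes, Hist3h2a, Hist2h2bb, Hist1h2ai and Hist2h2aa1, all old-OSKM mice lay above all young mice, 6.06% of the 66 against 1.90% of all genes. The median difference was 0.20, beside -0.04 over all genes, and 50 of 66 (75.8%) were higher, beside 38.7% of all genes. Both comparisons with young mice share the young mice, and both comparisons with old-OSKM mice share the treated mice, so their values are not independent. Without old-OSKM mouse 1 the median was 0.02, beside -0.03 over all genes, and 36 of 66 (54.5%) were higher, beside 39.6% of all genes. Of these 66, 4 were higher and 3 lower at an unadjusted p under 0.05, against 4.15% of all genes. Without overlap, 4 lay above and 4 below the young mice, against 3.04% of all genes. Without old-OSKM mouse 4 the median was 0.30 and 56 of 66 (84.8%) were higher, beside 37.9% of all genes. There 14 genes were higher at that p, against 5.81% of all genes. In this setting 9 lay above the young mice without overlap, against 4.60% of all genes. Then 3 genes passed the call, Hist2h2bb, Hist1h2ai and Hist3h2ba.

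Hist2h2bb, an H2B gene of the Hist2 cluster, was 1.74, 1.78, 1.57 and 1.54 in young mice, 1.98, 1.91, 2.08, 1.84 and 1.62 in old mice and 2.48, 2.11, 2.19 and 1.90 in old-OSKM mice. The old mice lay between and overlapped both other groups. The difference of old-OSKM from young mice was 0.51 ± 0.12 (SE), 1.43-fold, with an adjusted p of 0.582 (limma), and that from old mice was 0.29 ± 0.12 (SE). Hist1h2ai, a low Hist1 H2A gene, was -2.06, -2.002, -2.15 and -2.22 in young mice, at the level of the testis gene Hist1h2aa. It was -1.34, -2.22, -1.32, -0.91 and -1.39 in old mice and -0.24, -1.43, -0.45 and -1.996 in old-OSKM mice. The difference of 1.08 ± 0.36 (SE) from young mice (adjusted p = 0.706, limma) is thus measured from a group in which the gene lay within 0.1 of that testis gene in every mouse.

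The clearest feature of the histone genes was the single mouse old-OSKM 1. Of the 66 histone genes, 42 (63.6%) had their highest value of all 13 mice in it, whereas 8.5% of all genes did. No other mouse held the highest value of more than 9 histone genes. The median over the 66 genes was 1.14 in this mouse and lay between -0.48 and 0.25 in the other 12. By group these medians were -0.12 ± 0.18 in young (SD, n = 4), -0.11 ± 0.28 in old (SD, n = 5) and 0.15 ± 0.67 in old-OSKM mice (SD, n = 4). Old-OSKM mouse 4 had the lowest value of 23 of the 66 histone genes, a smaller share than the 44.7% of all genes that were lowest in it. It also held the highest value of 16% of all genes. Its median over the 66 genes was -0.39, and old mouse 2 was lower, at -0.48.

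The genes that were highest in old-OSKM mouse 1 were found in every class. They were 3 of 6 H1, 10 of 18 H2A, 12 of 17 H2B, 11 of 12 H3 and 6 of 13 H4 genes. The largest excess over the other mice was in Hist1h3c, with 2.07 in this mouse and -0.49 to 0.51 in the others. Hist1h2ab, an H2A gene, was 1.46 against -1.77 to 0.10, and Hist1h2bb, an H2B gene, was 1.87 against -1.06 to 0.57. All 3 lie in 1 stretch of the Hist1 cluster. Among the H1 genes, 2 also stood out: Hist1h1b was 0.62 against -2.65 to -0.54, and Hist1h1a was 1.07 against -2.03 to -0.17. No coding stretch of these 2 genes was found in another gene, but they were chosen for their values, and the genes with little shared sequence had a lower median excess.

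The excess differed with the usual level of the gene. Of the 17 histone genes with a mean above 1, 6 were highest in old-OSKM mouse 1, with a median excess of 0.24 over the median of the other mice. Of the 29 genes between -1 and 1 it was 22, with a median excess of 0.95, and of the 20 genes below -1 it was 14, with a median excess of 1.16. Among genes with more than 200 annotated bases after the stem-loop, 8 of 18 were highest in this mouse (median excess 0.30), and among those with a shorter or no extension 19 of 28 (median excess 1.01). Of the 11 genes with under 30% of coding stretches in another gene, 3 were highest there, with a median excess of 0.15, and of the 55 others 39 were, with a median excess of 0.88. Level, extension, class and sharing go together in this family, so these counts are descriptions of the same mouse. Genes without an excess included Hist2h2aa1 (3.99), Hist2h2be (-1.52), Hist2h2aa2 (-1.34) and the testis genes Hist1h2aa (-2.41), Hist1h2ba (-2.40) and Hist1h1t (-3.03). These 3 testis genes were at or under the low level defined above in every mouse, so their values say little about an excess.

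Genes of cell division were also highest in old-OSKM mouse 1. All 16 genes of the mitosis list had their highest value in it. Mki67, the proliferation antigen, was 0.52 there beside a mean of -1.56, and Top2a, the topoisomerase that untangles replicated chromosomes, was 0.34 beside -1.56. The summed RPKM of the 16 was 8.69 in this mouse and 1.94 to 4.301 in all others. By group it ranged from 2.40 to 3.65 in young, 1.94 to 3.70 in old and 2.42 to 8.69 in old-OSKM mice. Of the 22 S phase genes, 10 were highest in it, among them Mcm5 and Mcm6 of the replicative helicase, Rrm2 of ribonucleotide reductase and Uhrf1, and their summed RPKM was 22.9, beside 14.4 to 19.9 in the others.

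Markers of B, plasma and T cells were also highest in the same mouse. All 7 B and plasma cell markers and all 5 T cell markers measured were highest in it. Their summed RPKM was 14.6 and 5.15, beside 0.957 to 8.66 and 0.592 to 1.62 in the other mice. By group the B and plasma cell sum ranged from 0.957 to 2.90 in young, 2.93 to 8.66 in old and 4.03 to 14.6 in old-OSKM mice. The median of the 5 germinal centre markers was -2.29, -2.27 and -2.28 in old mice 1, 3 and 4. It was -2.45 in old-OSKM mouse 1 and lower in all other mice. Of these 5 markers, 2 were highest in old-OSKM mouse 1. Of the macrophage markers 4 of 5 were highest there, with a summed RPKM of 31.0, beside 27.3 in old-OSKM mouse 4, whose median over the histone genes was -0.39. Of the adipocyte markers 3 of 4 were highest in mouse 1, but their summed RPKM was 10.6 there and 13.2 in mouse 4. The 7 islet markers had their lowest median in mouse 1 (2.64, beside 3.18 to 5.62). None of the markers of duct (6), fibroblast and stellate (6), endothelial (4), erythroid (5) or liver cells (5) was highest in mouse 1. The 10 acinar markers had nearly the same median in all mice, 10.04 to 10.23, but the genes around that median hold top ranks, which quantile normalization sets to common values, so this median could hardly show a mouse standing apart. The part of these cells in the histone values was not tested. In bulk tissue, more cells of a type and more RNA per cell cannot be told apart.

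**Figure D5:**
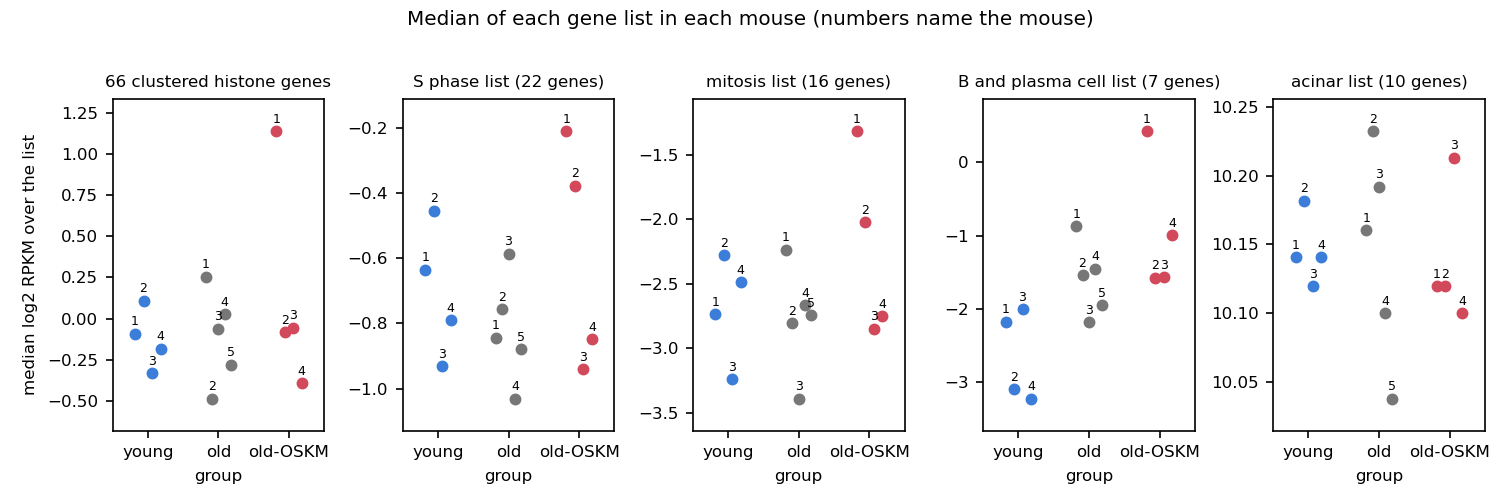
Median level (log2 RPKM) over the 66 histone genes and over the S phase, mitosis, B and plasma cell and acinar lists in each mouse (points, numbered within the group; each panel has its own axis). Old-OSKM mouse 1 is the highest point in the first 4 panels; the genes around the acinar median sit at top ranks, where quantile normalization leaves little room for a mouse to differ.

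None of the genes that serve the transcription and 3′ processing of histone RNA was highest in this mouse. The list held 15 genes, among them Npat, the coactivator of histone transcription, Slbp, the stem-loop binding protein, Lsm10 and Lsm11 of the U7 particle, and Cpsf2, Cpsf3 and Sympk of the cleavage complex. None was called by limma in any of the 3 comparisons. At an unadjusted p under 0.05 none passed with age or between old-OSKM and old mice, and 1, Casp8ap2, was higher in old-OSKM than in young mice (0.15). In old-OSKM mouse 1 Slbp was 0.14, beside a mean of 0.21, and Npat was -0.03, beside -0.08.

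Of 11 histone genes that are also expressed outside S phase, none was called by limma in any comparison. Of these, H2afj, an H2A variant gene, passed an unadjusted p under 0.05, with age (0.19), and no other did in any comparison. H1f0, H3f3a, H3f3b and H2afz were the highest of them, with means of 3.37, 3.24, 3.25 and 3.17, which is above all clustered genes but Hist2h2aa1. In old-OSKM mouse 1, 4 of the 11 were highest: H2afx, H2afz, H3f3a and Cenpa. Of the 10 histone chaperones none was called by limma and none passed an unadjusted p under 0.05. Asf1b and Chaf1a, which deliver new histones to replicated DNA, were highest in that mouse (-0.82 beside a mean of -2.35, and -0.87 beside -1.79), and so was the histone acetyltransferase Hat1.

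Single S phase genes passed the call where no histone gene did, and the difference between the lists was not tested. With age 1 of 22 genes was called lower, Ccne1 (-0.64), and 5 were lower at an unadjusted p under 0.05. Between old-OSKM and old mice 1 was called higher, Mcm5 (1.02), with 8 higher and 1 lower at that p, and against young mice 1 was called higher, Tk1 (0.80). None of the 16 mitosis genes was called by limma in any comparison, with 2 higher in old-OSKM than in old mice at an unadjusted p under 0.05, Bub1 and Kif11. Without old-OSKM mouse 1 none of the 22 S phase genes was called in either comparison with old-OSKM mice, and 3 were higher and 1 lower than in old mice at an unadjusted p under 0.05. Without it no mitosis gene passed that p, and the median difference of the list from old mice went from 0.67 to 0.26. The 4 cassette genes (Pou5f1, Sox2, Klf4 and Myc) are not separated into endogenous and transgene copies by the table. None of them was called by limma or passed an unadjusted p under 0.05 in any comparison, and their median difference of old-OSKM from old mice was 0.05.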

How the data were processed

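Per the labels, 4 young, 5 old and 4 old-OSKM mice gave 1 pancreas library each. The authors aligned reads with STAR 2.3.0e to mm10, dropped reads at 5 or more places, estimated RPKM with Casper, and deposited log2 RPKM per Entrez gene after quantile normalization (sorted values differ between mice by at most 0.0116). The values went into the fits unfiltered and with no pseudocount. Read totals are not used here, so depth and counting error are unknown, and the authors' adjustment for total reads is absent from the values. Every gene was fitted with limma 3.58.1 in R 4.3.3 (lmFit, eBayes, 3 groups together, no covariate). A call needed a fold change above 1.5 together with a raw p below 0.01, and Benjamini-Hochberg adjustment was over all genes. The fit was tested on simulated data. Stem-loops and shared stretches were read from GENCODE vM21 and positions from RefSeq GRCm38.p6. The rule for named genes took the 10 smallest raw p in each comparison, the 10 highest means, the highest of each class, the 3 smallest and 3 largest residual SD, and members of the listed pathways; genes named for old-OSKM mouse 1 were picked on sight of their values. The text does not discuss all genes of the rule. The members and lists were chosen with earlier results of these data known. The mice are separate animals, and shared litters or cages are not given in the sources used here. Alternatives were median centring, repeated quantile normalization, a low-value filter, pseudocounts of 1 and 0.1, the compared groups alone, eBayes with trend and robust settings, a covariate for the run of sample numbers, 1 value per protein, adjusted-p calls, and each mouse left out. Python 3.11.15 and matplotlib 3.10.9 made the figures.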

Additional observations from a re-analysis of the deposited data

Results flagged for a closer look

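A mouse was singled out where its distance to the nearest mouse of its group was a large share of the range of that group (Dixon's criterion). Of 201 groups examined, 10 (4.98%) met it, and chance gives about 1 in 20, so the number of such values is near the chance level. In old-OSKM mouse 1, Hist1h2bl was -0.21, with the next mouse at -1.21, and Hist1h4k was 1.37, with the next at -0.16. In young mice, Hist3h2ba was -1.81 in mouse 1, Hist1h3f was 1.34 in mouse 2, Hist1h4m was 0.0763 in mouse 3 and Hist1h1t was -2.30 in mouse 3. The value of Hist1h4m was low and the other 3 were high. In old mice, Hist1h3d was 0.0256 and Hist1h1t was -2.20 in mouse 4, both high. Hist1h4c was 1.89 in old mouse 5 and Hist1h2ba was -2.20 in old mouse 2, both low. The median over the 66 genes did not meet the criterion in any group, also not with the 1.14 of old-OSKM mouse 1, where the other 3 mice spread from -0.39 to -0.05.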

How the results depend on the processing

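Counts of called histone genes were 0 in each direction in all 3 comparisons, and remained 0 under every alternative run except with a mouse left out between old-OSKM and young mice, where those called higher ranged from 0 to 3. The 3 arose without old-OSKM mouse 4, and 1, Hist1h2ai, was called without old mouse 2. The median difference over the 66 genes ranged with single mice left out from 0.01 to 0.13 with age, from -0.03 to 0.25 from old to old-OSKM, and from 0.02 to 0.30 from young to old-OSKM. It turned negative only without old-OSKM mouse 1. Under the other alternatives it stayed positive. With the run of identifiers as a covariate it was 0.02, 0.06 and 0.08, and with log2(RPKM + 1) 0.03, 0.07 and 0.12. With 1 value per protein it was 0.07, 0.14 and 0.24. The old-OSKM mice all lay outside the run of later sample numbers, in consecutive numbers of their own. The covariate for that run therefore cannot separate their treatment from the order of the numbers. Leaving out nearly constant low values removed no member. The 10 histone genes with the smallest raw p of each comparison kept the sign of their log2 difference in that comparison under all these fits. Other named genes are not covered by this. No paired analysis was made, since each mouse gave 1 library and belonged to 1 group. With unknown depth, low values of near-identical genes cannot be given a counting error.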
